A study of Mus musculus with 6 samples.

Results

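Intergenic Maf peaks that carry H3K27ac were taken from ChIP-seq of adult mouse skeletal muscle. A Maf peak was included when no base lay within 1 kb of a protein-coding transcript start, its centre lay outside every protein-coding gene, and at least 1 base overlapped an H3K27ac region of either replicate. Of the 5467 rows in the Maf replicate 2 list, 1120 met this rule, or 20.5%. Nuclei came from gastrocnemius and quadriceps muscles of wild-type C57BL/6N mice aged 2 months, with no genetic change or treatment in any sample. Chromatin was split evenly between the Maf and H3K27ac immunoprecipitations, and there were 2 Maf samples, 2 H3K27ac samples and 2 inputs, which were not used here. The Maf list of replicate 1 held only 74 peaks, so the peaks described here rest on replicate 2 alone. All peaks of the replicate 2 list were 281 bp long. The lists give positions without read counts, so sequencing depth is unknown. The position of a row in the list was used as a stand-in for peak strength, and the list does not state that it is sorted by strength.

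Maf is a basic leucine zipper (bZIP) transcription factor that binds DNA as a dimer. Its recognition element joins a pair of inverted half-sites, written TGCTGA in their core, around a central sequence shared with the AP-1 site of Fos and Jun. H3K27ac is an acetylation of histone H3 that is found at active promoters and enhancers. A peak of a transcription factor that lies far from gene starts and within H3K27ac has the usual features of an active enhancer, although neither measurement tests enhancer activity. In skeletal muscle, Maf is known as a factor of fast, glycolytic myofibers.

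In these samples, H3K27ac was also found at marker genes of cell types other than muscle fibers. All 5 of 5 myofiber markers (Acta1, Ckm, Tnnt3, Mylpf and Pvalb) carried H3K27ac no more than 1 kb from a start. So did 5 of 5 endothelial, 5 of 5 fibro-adipogenic, 5 of 5 macrophage and 4 of 5 satellite cell markers. Of all protein-coding genes, 58.3% carried the mark there, and which cell types contributed nuclei was not tested. Of these markers, 2 from myofibers and 0 from the other types were the nearest gene of an intergenic marked Maf peak. The share among all protein-coding genes was 4.02%, and lists of 5 are too short to read a difference from it. In whole muscle, a mark in few nuclei and a weaker mark in many nuclei cannot be told apart.

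The sequences of the 4 highest peaks in the list that were also called in Maf replicate 1 are shown because they rest on both Maf samples. They lie upstream of Prkab1, a subunit of the AMP-activated protein kinase, Calm2, which encodes calmodulin, Ccdc188 and Mtus1, a microtubule-associated protein. Sequences are from GRCm38, plus strand, 5′ to 3′. Capitals mark TGCTGA on either strand (TCAGCA where it lies on the minus strand) and the 13-base Maf element with up to 2 mismatches.
Prkab1, chr5:116036520-116036800: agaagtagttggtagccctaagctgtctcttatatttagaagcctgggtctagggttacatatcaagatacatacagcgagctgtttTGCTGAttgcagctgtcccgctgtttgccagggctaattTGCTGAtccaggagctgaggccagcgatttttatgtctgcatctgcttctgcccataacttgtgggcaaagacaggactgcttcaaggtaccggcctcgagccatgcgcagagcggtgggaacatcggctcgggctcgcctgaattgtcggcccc
Calm2, chr17:87461219-87461499: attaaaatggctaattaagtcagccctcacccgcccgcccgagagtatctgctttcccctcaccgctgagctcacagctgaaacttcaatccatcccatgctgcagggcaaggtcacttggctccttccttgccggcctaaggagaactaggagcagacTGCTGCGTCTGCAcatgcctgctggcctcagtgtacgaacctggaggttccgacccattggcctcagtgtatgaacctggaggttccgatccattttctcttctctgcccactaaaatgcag
Ccdc188, chr16:18194571-18194851: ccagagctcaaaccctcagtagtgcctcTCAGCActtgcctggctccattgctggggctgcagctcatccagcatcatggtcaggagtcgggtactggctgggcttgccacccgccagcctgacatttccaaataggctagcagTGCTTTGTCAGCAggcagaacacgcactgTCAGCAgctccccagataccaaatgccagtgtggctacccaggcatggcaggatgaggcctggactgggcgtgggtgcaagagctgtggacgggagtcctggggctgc
Mtus1, chr8:41173428-41173708: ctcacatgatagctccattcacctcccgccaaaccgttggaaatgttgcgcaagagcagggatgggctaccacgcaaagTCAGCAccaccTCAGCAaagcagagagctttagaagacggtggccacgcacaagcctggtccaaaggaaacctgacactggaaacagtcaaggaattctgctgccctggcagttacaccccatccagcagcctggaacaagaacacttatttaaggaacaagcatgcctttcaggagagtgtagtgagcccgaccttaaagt
The Prkab1 peak held 2 copies of TGCTGA and the Mtus1 peak held 2. The Ccdc188 peak held 3 copies and a full element with 2 mismatches. The Calm2 peak held 0 copies of TGCTGA and a full element with 2 mismatches.

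The next sequences are the 6 peaks whose full Maf element had the fewest mismatches, in order of mismatches and then of list position. Each line gives 61 bases, read along the strand that holds TGCTGA, with the element in capitals.
2010003K11Rik, chr19:4493166-4493226, plus strand: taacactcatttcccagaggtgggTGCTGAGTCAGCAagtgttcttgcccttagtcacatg
Hlx, chr1:184675586-184675646, plus strand: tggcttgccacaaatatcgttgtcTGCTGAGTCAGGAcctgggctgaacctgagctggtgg
B3gat1, chr9:26625676-26625736, plus strand: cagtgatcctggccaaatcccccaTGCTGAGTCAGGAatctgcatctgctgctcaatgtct
Foxn3, chr12:99160329-99160389, minus strand: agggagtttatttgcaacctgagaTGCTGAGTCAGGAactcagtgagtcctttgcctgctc
Parp1, chr1:180604735-180604795, minus strand: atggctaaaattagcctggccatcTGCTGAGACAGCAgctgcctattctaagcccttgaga
Dyrk2, chr10:118712134-118712194, minus strand: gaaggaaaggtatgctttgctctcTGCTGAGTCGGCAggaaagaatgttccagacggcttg
The full element had 0 mismatches in 1 peak, 1 mismatch in 25 peaks and 2 mismatches in 131 peaks. The peak with the complete element lay 5384 bp downstream of the start of 2010003K11Rik, at list position 637. In nearly all peaks that held it, the element thus differed from its full sequence.

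The short half-site TGCTGA, searched on both strands, lay within 200 bp around the centre of 596 of the 1120 peaks, or 53.2% (exact Clopper-Pearson 95% interval 50.2 to 56.2). Windows of the same size 1 kb to each side held it in 15.1% on average, a 3.52-fold lower share (adjusted p = 3.08e-75, exact McNemar test, two-sided). The longer half-site TGCTGAC lay in 260 peaks, or 23.2% (20.8 to 25.8), against 3.84% beside them, a 6.05-fold difference (adjusted p = 5.21e-39, exact McNemar test). The full element was found in 157 peaks, or 14% (12.0 to 16.2), against 0.893% beside them, a 15.7-fold difference (adjusted p = 1.62e-32, exact McNemar test). Among all 5466 replicate 2 peaks on assembled chromosomes, the shares were 46.2% for TGCTGA, 21% for TGCTGAC and 11.8% for the full element. Either TGCTGA or the full element was present in 639 peaks (57.1%), and 481 peaks (42.9%) had neither. For each motif the less extreme p of the left and right windows was used, and p-values were adjusted by Benjamini-Hochberg over 24 motifs. Peaks are not replicates, so these p-values and intervals describe the lists and not the spread between animals.

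The half-sites were close to the centre of the peaks. Of 766 copies of TGCTGA within 100 bp of the centre, the median distance was 29 bp, and 72.6% lay within 50 bp. In the 25 bp just right of the centre there were 16.3 copies per 100 peaks, and at the edge of the kilobase examined there were 2.41 and 2.5. A single copy was found in 464 peaks and 2 or more in 137, with at most 9 copies in a peak. Here copies are counted by their middle, so a copy that crosses the edge of the 200-bp window is included and slightly more peaks have one than in the share above. The base after TGCTGA was G in 38.9% of copies and C in 37.9%, and A or T in 9.79% and 13.4%. In the windows beside the peaks it was G in 38.5%, C in 23.6%, A in 20.9% and T in 17%, so that C was more frequent in the peaks while the shares of G were close. On the other side, the third and second base before TGCTGA were A or T in 62.0% and 61.7% of copies, against 49.7% and 50.3% of the 382 copies found in the windows beside the peaks. A or T bases before the half-site are known as a feature of Maf sites with a single half-site. The base just before was C in 40.2% of copies against 28.5% beside.

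**Figure D1:**
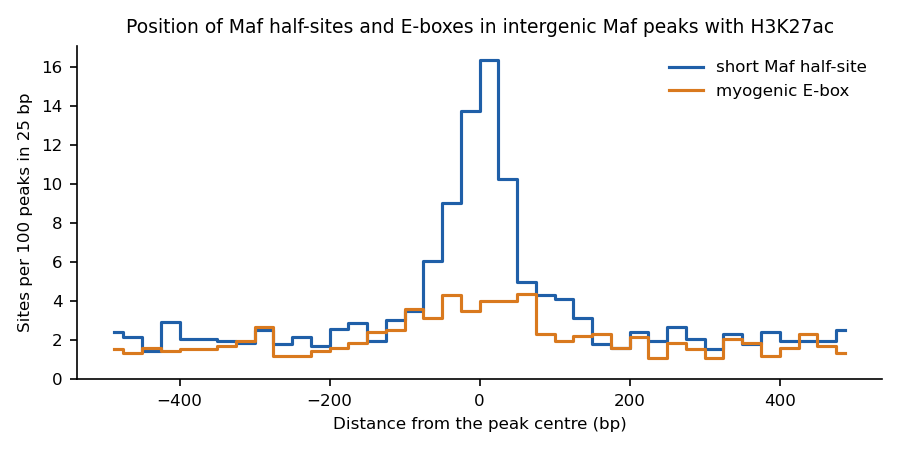
Copies of TGCTGA (short Maf half-site, blue) and CAGCTG (myogenic E-box, orange) per 100 peaks in bins of 25 bp, against distance from the centre of the 1120 intergenic Maf peaks with H3K27ac. The half-site reached 16.3 copies per 100 peaks just right of the centre, while the E-box formed a low, broad rise of at most 4.38.

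The peak nearest the top of the list with many half-sites lay upstream of Morc3, at position 5. It held 8 copies of TGCTGAC within 200 bp around the centre, part of them in a tandem repeat. It is shown because copies in this window follow each other directly. Capitals mark the copy nearest to the centre.
Morc3, chr16:93812484-93812544, plus strand: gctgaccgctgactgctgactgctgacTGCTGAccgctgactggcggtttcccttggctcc

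Of the other 21 motifs, 6 were also more frequent at the centre than beside. The E-box CAGCTG, bound by myogenic factors such as Myod1 and Myog, was present in 281 peaks (25.1%, 22.6 to 27.7) against 9.33% beside (adjusted p = 2.24e-19, exact McNemar test). It was present in 23.8% of the peaks that held TGCTGA and in 26.5% of those that did not. The AP-1 site, TGAGTCA or TGACTCA, was present in 150 peaks (13.4%, 11.5 to 15.5) against 3.93% beside (adjusted p = 4.57e-13, exact McNemar test). Its letters overlap those of the Maf element, and in 58 of the 150 peaks every AP-1 site overlapped a TGCTGA. A site apart from TGCTGA was found in 92 peaks, or 8.21%, and in 3.57% of the windows beside. Overlap with the full element, which allows mismatches, was not checked, so some of these sites may lie in such an element. The Mef2 site, bound by the Mef2 factors of muscle, was found in 7.68% against 3.17% (adjusted p = 7.84e-05, exact McNemar test). The glucocorticoid element, a palindrome bound by the glucocorticoid receptor and searched with 1 mismatch, was found in 6.79% against 3.35% (adjusted p = 0.0031, exact McNemar test). The Sp1 box GGGCGG was found in 6.79% against 3.71% (adjusted p = 0.00452, exact McNemar test) and the Ctcf site, searched with 1 mismatch, in 5% against 1.96% (adjusted p = 0.00154, exact McNemar test). The Runx site TGTGGT and the Gata site AGATAA were less frequent at the centre, at 11.0% against 15.5% and 7.23% against 10.7% (adjusted p = 0.00966 and 0.0404, exact McNemar test). The windows beside were not matched for base composition, and its part in the differences between centre and beside was not tested. Of all 5466 peaks, 19.5% held CAGCTG, 9.9% the AP-1 site, 5.69% the Mef2 site, 5.49% the glucocorticoid element, 11.9% the Sp1 box, 5.09% the Ctcf site, 12.4% the Runx site and 7.63% the Gata site.

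The motif content of intergenic marked peaks was compared with that of other Maf peaks from the same list. The 3 other classes were 925 promoter peaks with H3K27ac, 1747 intragenic peaks with H3K27ac and 755 intergenic peaks without it. Differences were tested by Fisher's exact test, two-sided, with adjustment over 72 comparisons. The fewest differences were found against intragenic marked peaks, where only TGCTGAC and TGCTGA passed among the 24 motifs at an adjusted p under 0.05. TGCTGAC was less frequent in the intergenic marked peaks, at 23.2% against 28% (25.9 to 30.2) of intragenic marked peaks (adjusted p = 0.0159, Fisher's exact test). For TGCTGA the shares were 53.2% and 57.7%, at an adjusted p of 0.0499 (Fisher's exact test). The TGCTGA difference did not pass under any alternative run, with adjusted p of 0.0592 (all protein-coding transcripts), 0.0595 and 0.899 (upper and lower part of the list) and 0.181 (window of 100 bp, all Fisher's exact test). The TGCTGAC difference did not pass within the upper part, positions 1 to 2734, or the lower part (adjusted p = 0.125 and 0.364, Fisher's exact test). Mef2 sites, at 7.68% and 7.61%, E-boxes CAGCTG, at 25.1% and 23.6%, AP-1 sites, at 13.4% and 11.7%, and full elements, at 14% and 15.2%, did not pass the threshold (adjusted p of 1, 0.569, 0.334 and 0.576, Fisher's exact test).

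Promoter peaks differed in 13 of 24 motifs, of which 11 were more frequent in the intergenic marked peaks. TGCTGAC was present in 16.6% of promoter marked peaks (adjusted p = 0.00124, Fisher's exact test) and TGCTGA in 32.6% (adjusted p = 2.18e-19, Fisher's exact test). CAGCTG was present in 12.6% of them, the AP-1 site in 6.38%, the Mef2 site in 2.38% and the glucocorticoid element in 1.95%, each below the share in intergenic marked peaks (adjusted p = 1.11e-11, 1.08e-06, 4.03e-07 and 8.31e-07, Fisher's exact test). The reverse was seen for the Sp1 box, in 6.79% of intergenic marked and 43.1% of promoter marked peaks (adjusted p = 4.5e-86, Fisher's exact test), and for the Ets site CCGGAA, in 3.75% and 15.6% (adjusted p = 2.18e-19, Fisher's exact test). Sp1 boxes and Ets sites are common features of promoters rich in CG, and the median content of G and C was 50.2% in intergenic marked and 60.9% in promoter marked peaks. The part of base composition in these differences was not tested.

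Intergenic peaks without H3K27ac differed in 12 of 24 motifs. TGCTGAC was present in 13.8% of the unmarked peaks against 23.2% of the marked ones (adjusted p = 1.87e-06, Fisher's exact test), TGCTGA in 36.3% against 53.2% (adjusted p = 1.11e-11) and CAGCTG in 14.4% against 25.1% (adjusted p = 1.68e-07). Ctcf sites were more frequent without the mark, at 9.14% against 5% (adjusted p = 0.00282, Fisher's exact test), and so were Runx sites, at 16.2% against 11.0% (adjusted p = 0.00489, Fisher's exact test). Position in the list moved with the mark, since the median position was 2153.5 of 5467 for marked and 4233 for unmarked intergenic peaks. Within the upper part of the list (positions 1 to 2734), TGCTGAC was present in 27.6% of marked and 33.8% of unmarked peaks (adjusted p = 0.382, Fisher's exact test), so the direction was turned. Within the lower part it was present in 15.5% and 8.77% (adjusted p = 0.00641, Fisher's exact test). TGCTGA split in the same way, at 58.5% of marked and 67.5% of unmarked peaks in the upper part (adjusted p = 0.159) and 44% and 28.5% in the lower part (adjusted p = 6.88e-06, Fisher's exact test). CAGCTG was present in 24.8% and 22.5% in the upper part (adjusted p = 0.923) and 25.6% and 12.4% in the lower part (adjusted p = 2.12e-06, Fisher's exact test). For these 3 motifs, a higher share with the mark passed only among peaks of the lower part. Ctcf sites were present in 4.77% of marked and 26.5% of unmarked peaks in the upper part (adjusted p = 1.58e-12, Fisher's exact test) and in 5.41% and 4.8% in the lower part (adjusted p = 0.853). The Ctcf difference was also lost with a window of 100 bp (adjusted p = 0.0829, Fisher's exact test). The Runx difference passed in neither part (adjusted p = 0.102 and 0.254, Fisher's exact test).

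**Figure D2:**
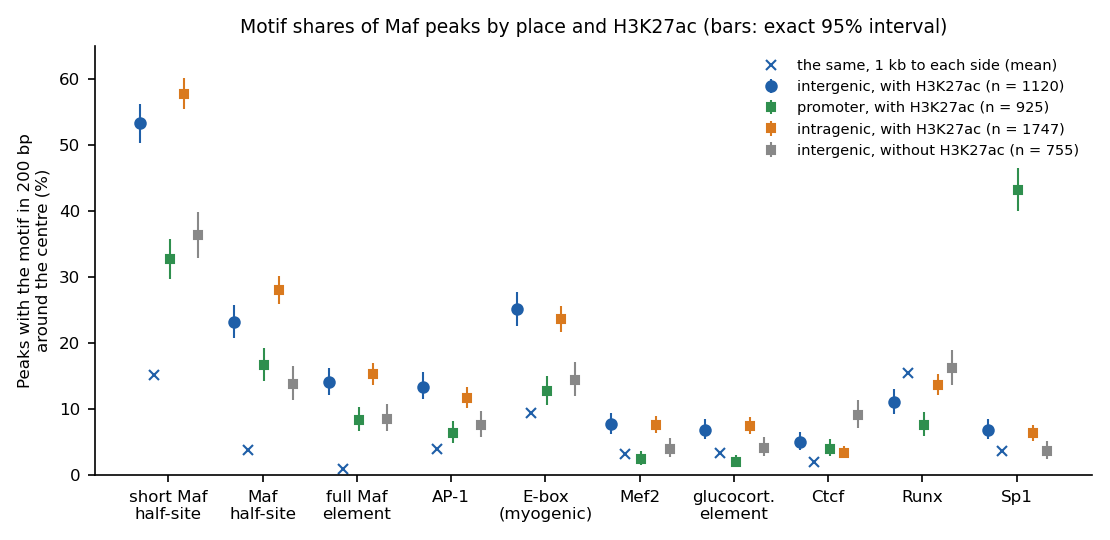
Share of Maf peaks with each of 10 motifs in 200 bp around the centre, for the 1120 intergenic marked peaks (blue circles), windows 1 kb to each side of them (crosses, mean of both sides) and 3 other classes (squares), with exact 95% intervals as bars. The blue circles lie near the orange squares of intragenic marked peaks for most motifs. They are lower for TGCTGAC (23.2% against 28%) and TGCTGA (53.2% against 57.7%). The Sp1 box stands out at 43.1% of promoter peaks.

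Maf half-sites became fewer down the list of intergenic marked peaks. In 5 groups of 224 peaks by position, TGCTGAC was present in 38.8%, 25.4%, 21.4%, 15.2% and 15.2%. The exact 95% intervals were 32.4 to 45.6 in the first and 10.7 to 20.6 in the last group. H3K27ac changed in the same order, with the share marked in both replicates going from 95.5% in the first to 80.4% in the last group and the median length of the H3K27ac region from 3155 to 1956.5 bp. CAGCTG showed no steady order, at 29.0%, 24.1%, 24.6%, 26.3% and 21.4%. Its intervals in the first (23.2 to 35.4) and last group (16.2 to 27.4) overlapped. Distance to the nearest start showed no such order, with TGCTGAC in 22.5% of 227 peaks within 10 kb, 24.0% of 446 peaks from 10 to 50 kb, 23.9% of 184 peaks from 50 to 100 kb and 22.1% of 263 peaks beyond 100 kb. These shares had overlapping intervals.

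H3K27ac had been used to choose the peaks, and its values are a description. Of the 1120 peaks, 1000 (89.3%, 87.3 to 91.0) overlapped a region in both H3K27ac replicates, 69 in replicate 1 only and 51 in replicate 2 only. The share was 89.6% for intragenic and 97.7% for promoter marked peaks. The whole length of the peak lay in H3K27ac in 1035 cases (92.4%), and under 50% of it did so in 33. The merged H3K27ac regions that held these peaks had a median length of 2471 bp (quartiles 1569 and 4572 bp), against 1446 bp for all 52540 merged regions. For intragenic and promoter marked peaks the median was longer, at 3220 and 2832 bp, so long regions were not particular to intergenic marked peaks. The median distance from a centre to the nearer edge of its region was 860.5 bp. Of the 1073 regions with such a peak, 1030 held 1, 40 held 2 and 3 held 3 or 4. The peak with the smallest overlap, near Otos at position 5357, shared 30 bp with H3K27ac. The nearest peak just outside, near H2al1j at position 4100, missed a region by 4 bp. On the side of the distance limit, the peak near Ercc1 at position 82 lay 1028 bp from a start, and a promoter peak of Zfp36 lay 998 bp from one.

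**Figure D3:**
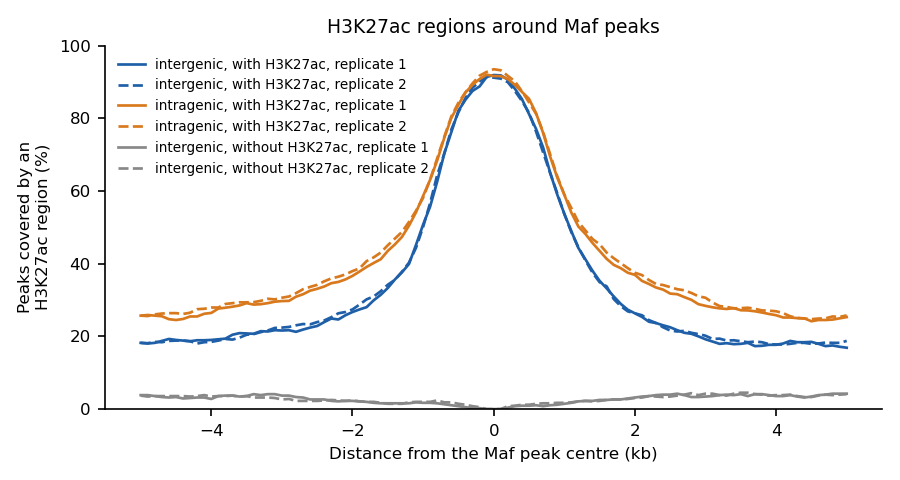
Share of Maf peaks covered by an H3K27ac region at each distance from the peak centre, for both H3K27ac replicates (solid and dashed lines). Coverage of intergenic marked peaks fell from 91.9% and 91.2% at the centre in replicates 1 and 2 to under 20% at 5 kb, with intragenic marked peaks above them at that distance; the value near 0 at the centre of unmarked peaks follows from the rule.

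Of the peaks called in Maf replicate 1, an independent sample, 55 of the 5466 replicate 2 peaks overlapped 1 (background 1.01%). Intergenic marked peaks accounted for 21 of these, or 1.88% (1.16 to 2.85). The share was 5 of 925 in promoter marked peaks (0.541%, adjusted p = 0.0263, Fisher's exact test), 23 of 1747 in intragenic marked peaks (1.32%, adjusted p = 0.276) and 5 of 755 in unmarked intergenic peaks (0.662%, adjusted p = 0.0413). The first of these differences was kept within the upper part of the list (2.81% against 0.89%, adjusted p = 0.0434, Fisher's exact test), and the difference from unmarked peaks was not (2.81% against 2.65%, adjusted p = 1). Neither passed when genes of all biotypes were used to define places (adjusted p = 0.163 and 0.255, Fisher's exact test). Of the 21 peaks, 18 were in the first 224 of the intergenic marked peaks, 10 (47.6%, 25.7 to 70.2) held TGCTGAC and 17 (81.0%, 58.1 to 94.6) held TGCTGA. The shares were 23.2% and 53.2% over all 1120 intergenic marked peaks, and 38.8% and 67.4% in the first 224. The last 2 values lie inside the intervals of the 21 peaks.

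The 12 highest of these 21 peaks lay near genes of several functions. After Prkab1 at position 6, 12152 bp upstream, Calm2 at position 12, 14424 bp upstream, Ccdc188 at position 27, 23168 bp upstream, and Mtus1 at position 32, 39842 bp upstream, came Ncf4, a subunit of the phagocyte NADPH oxidase, at position 40 and 3235 bp. The next was Tpm1, encoding the sarcomeric alpha-tropomyosin, at position 45 and 138490 bp upstream. Ccdc86 followed at position 50 and B3gat1, a glucuronosyltransferase, at position 83. Fgd2, an exchange factor of Cdc42, was at position 84, Insc, an adapter of spindle orientation, at 100, Zmiz1, a coactivator related to Pias proteins, at 113, and Arhgap35 at 120. All 12 were marked in both H3K27ac replicates, as were 89.3% of all 1120 intergenic marked peaks. The nearest genes of these 12 peaks thus included the sarcomere gene Tpm1 and the phagocyte gene Ncf4, and shared functions were not tested.

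The first 15 intergenic marked peaks in the list, between positions 4 and 36, were each nearest to a different gene. They were Mfsd4b4, a transporter family member, Morc3, Prkab1, the sialyltransferase gene St3gal6, Fam181a, Calm2, the transcription factor gene Ets2, Hhipl2, Nacc2, Ccdc188, Frmd8, Mtus1, the AP-1 gene Fos, the acetyltransferase subunit gene Naa15 and the phosphate exporter gene Xpr1. The peak of Fos lay 18678 bp upstream at position 33, held 1 TGCTGA and a full element with 2 mismatches, and was marked in both replicates. The peak of Mfsd4b4, at position 4, was the only 1 of the 15 marked in replicate 2 alone. TGCTGA was present in 12 of these 15 peaks, against 53.2% of all 1120 intergenic marked peaks.

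Most intergenic marked peaks lay far from gene starts. The median distance from a centre to the nearest protein-coding start was 35805.5 bp (quartiles 12209.5 and 94424 bp), with a range of 1168 to 1350293 bp. Of the 1120 peaks, 227 lay within 10 kb, 673 (60.1%) within 50 kb, and 263 (23.5%) beyond 100 kb, of which 31 were beyond 500 kb. They were upstream of the nearest start in 705 cases (62.9%, 60.0 to 65.8), and the rule removed the positions inside genes that lie downstream of a start. The nearest gene names a place and was not shown to be a target.

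Several intergenic marked peaks lay upstream of the fast myosin genes and of Tpm1. The adult fast myosin heavy chain genes Myh2, Myh1 and Myh4 form a cluster with embryonic Myh3, and the DNA upstream of Myh2 is known to hold an enhancer that acts on the fast genes. Between Myh3 and Myh2 there were 3 intergenic marked peaks. The highest, at position 48, lay 45364 bp upstream of Myh2. The next, at position 166, lay 31215 bp upstream of Myh2 and was also called in Maf replicate 1. The last, at position 185, lay 36793 bp downstream of Myh3 and in the same H3K27ac region of 19606 bp as the first. The 3 peaks held 1, 3 and 1 copies of TGCTGA, and the copy nearest to the centre of each is shown in capitals.
Myh2, position 48, chr11:67125687-67125747, plus strand: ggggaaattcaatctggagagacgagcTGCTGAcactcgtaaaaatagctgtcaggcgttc
Myh2, position 166, chr11:67139799-67139859, minus strand: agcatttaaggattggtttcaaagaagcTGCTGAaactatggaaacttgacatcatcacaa
Myh3, position 185, chr11:67115085-67115145, minus strand: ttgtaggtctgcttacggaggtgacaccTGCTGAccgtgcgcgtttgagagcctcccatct
The nearest intergenic marked peak was 60240 bp from a start of Myh1 and 98217 bp from a start of Myh4. Myh4 also had a Maf peak within 1 kb of a start, and Myh1 did not. These sequences and those of Morc3 were chosen after their values were seen, as were the loci with most peaks below.

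Tpm1 was the nearest gene of 5 peaks, all upstream, at distances of 28435 to 138490 bp and list positions 45, 338, 1181, 1700 and 3898. All 5 were marked in both H3K27ac replicates, as were 89.3% of all 1120 intergenic marked peaks. Of the 5, 2 shared an H3K27ac region of 12969 bp. The peak at position 338 held 2 copies of TGCTGA and the peak at position 1700 a full element with 2 mismatches. The other 3 had neither within 200 bp around the centre.

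Maf itself was the nearest gene of 7 intergenic marked peaks, as many as any gene. They were all downstream of its start, at 46244, 47430, 56676, 68124, 122557, 192897 and 348986 bp. Their list positions were 3885, 510, 2298, 3133, 181, 2541 and 974 in that order. All 7 were marked in both H3K27ac replicates, 4 held TGCTGA and 0 overlapped a peak of Maf replicate 1. Over all 1120 intergenic marked peaks these shares were 89.3%, 53.2% and 1.88%. Tnp1, which encodes a protein of spermatid chromatin, was likewise the nearest gene of 7 peaks, at 30286 to 440896 bp. Of 878 nearest genes, 703 had 1 peak, 132 had 2 and 43 had 3 or more.

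**Figure D4:**
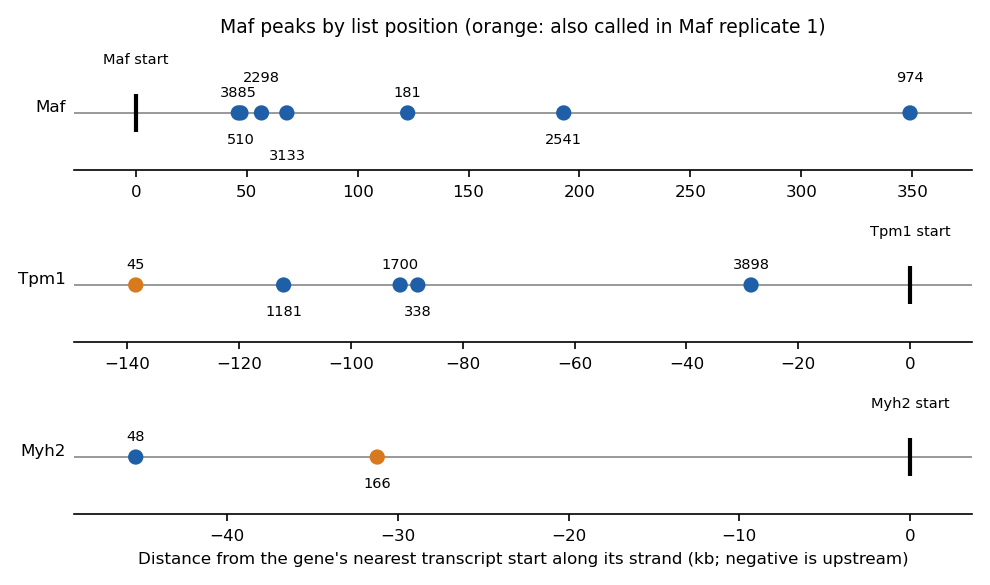
Intergenic marked Maf peaks whose nearest gene was Maf, Tpm1 or Myh2, by distance from the nearest transcript start of that gene along its strand in kb, with the list position of each peak as a number. Orange points were also called in Maf replicate 1. The 7 peaks of Maf are all downstream, and the 5 of Tpm1 and 2 of Myh2 all upstream.

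The H3K27ac regions with most intergenic marked peaks were long. A region of 36628 bp between Tef, a clock-controlled bZIP factor, and Tob2, an antiproliferative protein, held 4 peaks at positions 382, 926, 1013 and 2377, of which 3 had TGCTGA. The peak at position 382 had a full element with 1 mismatch. A region of 27668 bp near Clec2d, a ligand of a natural killer cell receptor, and Cd69, an activation marker of lymphocytes, held 3 peaks at positions 234, 402 and 1398. A region of 41707 bp between Mylk4, a myosin light chain kinase, and Wrnip1 held 3 peaks at positions 517, 1210 and 1931. Regions with 2 peaks near Fam181a (positions 11 and 1317), Calm2 (12 and 863) and Mtus1 (32 and, nearer to Fgl1, 180) were next. Such long regions can reach into promoters, but all peaks counted lay over 1 kb from a protein-coding start.

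Of all 21827 protein-coding gene names, 878 were the nearest gene of an intergenic marked peak (background 4.02%). The counts below are read against this share and have no test, because the lists were chosen with results of these data known. In the fast sarcomere list, 7 of 24 were nearest genes (29.2%): Tpm1, Myh2, Tnnt3, Cmya5, Mylk2, Myot and Myl1. The list also holds genes that are not specific to fast fibers, such as Myot and Cmya5. The peak of Tnnt3, fast troponin T, was at position 179, 2416 bp upstream of the start in an H3K27ac region of 47650 bp. That of Cmya5, encoding myospryn, was at position 237 and held a full element with 2 mismatches. The share for slow fiber genes was 1 of 18 (5.56%), with Sox6, a repressor of slow fiber genes, at position 3858 and 357782 bp. Within 50 kb of a start, the counts were 7 of 24 for the fast sarcomere list and 3 of 18 for slow fiber genes (background 5.61%). Developmental muscle genes numbered 3 of 22 (13.6%), with Igf2 at position 110, Myh3 at 185 and Sox4 at 3216. By a start within 50 kb they numbered 2 of 22 (9.09%), namely Myh3 and Mymx.

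Calcium handling genes had 8 of 26 (30.8%). Beside Calm2, Jph1, which joins the membranes of the triad, had a peak at position 173 with 4 copies of TGCTGA, 181117 bp downstream. Cacng1, a subunit of the calcium channel of the T-tubule, was at position 198, and Casq1, the calcium-binding protein of the sarcoplasmic reticulum of fast fibers, at position 695 and 2124 bp upstream. Its other nearest genes included Sypl2, Orai1 and Pvalb. Of the fast genes named by the study for Maf, Ckm was 67415 bp, Atp2a1 210989 bp, Actn3 384710 bp and Mybpc2 1043880 bp from the nearest intergenic marked peak, and none of the 4 was a nearest gene. All 4 had a Maf peak within 1 kb of a start, as did 4.71% of all protein-coding genes. Myog and Mymk, genes of muscle development, were 617928 and 934781 bp from the nearest intergenic marked peak. Myog had a Maf peak within 1 kb of a start and Mymk did not. The median distance over all genes was 769.881 kb, and over the fast, slow and calcium lists it was 267.249, 611.189 and 230.037 kb.

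Metabolic genes were nearest genes in 5 of 27 for glycolysis and glycogen (18.5%), 5 of 26 for oxidative and fatty acid metabolism (19.2%), 5 of 21 for energy sensing (23.8%) and 4 of 24 for insulin signaling and glucose uptake (16.7%). For glycolysis these were Pfkfb3, an activator of the pathway, at position 747, Ldha, lactate dehydrogenase A, at 824, Ppp1r3a, a glycogen-targeting subunit, at 1053, Gpi1 at 2285, and Hk2. For energy sensing they were Prkab1, Prkaa2, the catalytic alpha2 subunit of the AMP-activated kinase, at position 475 and 2149 bp upstream, Lpin1 at 1573, Tfam at 3926, and Ppara. Trib1, a pseudokinase, at position 169, Irs2, an adapter of the insulin receptor, at 1289, Igf1r at 1402 and Pik3r1 at 3565 were those of the insulin list. In the oxidative list, Idh2, Ucp3, Pdk4 and Lpl were at positions 364, 971, 2053 and 2296, with Acsl1 below them. A catalytic and a regulatory subunit of the AMP-activated kinase were thus both among the nearest genes.

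Of myogenic and Mef2 factors, 8 of 25 (32%) were nearest genes, with Mef2a at position 551, Eya4, a transcriptional coactivator, at 776, Mrtfb at 929 and Myf6 at 1193, followed by Mef2c, Vgll2, Myod1 and Six4. By a start within 50 kb, 5 of 25 were counted. Genes of atrophy and glucocorticoid response had 7 of 22 (31.8%), with Bcl6 at position 422 and 2 copies of TGCTGAC, Cebpb at 538, Gadd45a at 760 and Tsc22d3, a glucocorticoid-induced gene, at 1114. This list had the lowest median distance to a peak, 118.496 kb. AP-1 and immediate-early genes had 5 of 20 (25%), with Fos at position 33, Nr4a1 at 626 and also called in Maf replicate 1, Klf4 at 2473 and Jund at 2535. Clock and PAR bZIP genes had 4 of 19 (21.1%), with Rora, Tef, Bhlhe41 and Bhlhe40 at positions 409, 1013, 1400 and 1855. Of the Maf, Bach and cap-n-collar factors, 2 of 13 (15.4%) were nearest genes, namely Maf and Nfe2l3, the latter at position 3089 in a region called in replicate 2 only.

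Lists of other cell types, of the neuromuscular junction and of liver had 0 or 1 nearest genes each. For lists of this size, such counts are near the share of all protein-coding genes, 4.02%. The counts were 1 of 15 for satellite cells (6.67%, Fgfr4), 1 of 16 for endothelial cells (6.25%, Cldn5), 1 of 18 for fibro-adipogenic and tendon cells (5.56%, Dpt), 1 of 15 for macrophages (6.67%, Ptprc), 0 of 16 for the neuromuscular junction and 0 of 19 for liver. The peaks of Cldn5, Dpt and Ptprc were at positions 2928, 3687 and 4914, and that of Fgfr4 at 680. By a start within 50 kb (background 5.61%), satellite cell genes had 3 of 15 (20%), liver genes 2 of 19 (10.5%) and macrophage genes 0 of 15. Lists of this size leave wide intervals, and 0 of 16 allows a share of up to 20.6% (exact Clopper-Pearson). Among the 12735 genes with H3K27ac within 1 kb of a start, 726 were nearest genes (background 5.7%), a higher share than among all genes. Median distances to a peak were 206.51 kb for clock, 224.581 kb for AP-1, 229.818 kb for energy sensing, 260.096 kb for myogenic and 337.152 kb for Maf and Bach genes. For glycolysis, oxidative, insulin and developmental genes they were 521.164, 764.26, 689.562 and 922.486 kb. The lists of other cell types, the neuromuscular junction and liver had medians of 575.418 (endothelial) to 952.695 kb (fibro-adipogenic and tendon). All but the developmental, satellite cell (779.091 kb) and fibro-adipogenic lists were thus below the median over all genes, 769.881 kb. All 24 of 24 genes of the fast sarcomere list had H3K27ac at a start, and 7 of them (29.2%) were nearest genes.

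**Figure D5:**
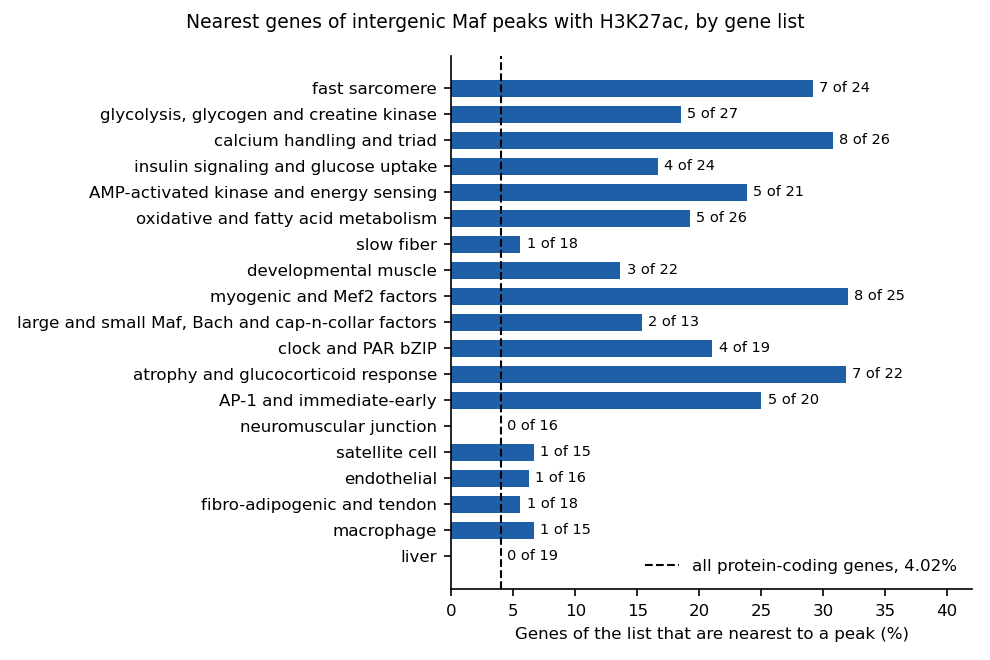
Share of the genes in each of 19 lists that were the nearest gene of an intergenic marked Maf peak, with the counts at the bars. The dashed line is the share of all protein-coding genes, 4.02%, and the lists of other cell types have 1 gene each and those of the neuromuscular junction and liver 0. With a start within 50 kb in place of the nearest gene, satellite cell genes come to 3 of 15 and liver genes to 2 of 19.

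Other Maf peaks were also frequent at the nearest genes. Of the 878 genes, 76 (8.66%) had a Maf peak within 1 kb of a start, against 4.71% of all genes. A Maf peak in the gene body was found for 179 (20.4%), against 8.81% of all genes, and H3K27ac at a start for 82.7% against 58.3%. Nearest genes were chosen by their distance to a Maf peak with H3K27ac, so these shares are a description.

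Noncoding genes overlapped part of the intergenic marked peaks, since only protein-coding genes defined the class. The centre lay in a long noncoding RNA gene in 211 peaks (18.8%), against 13.8% of unmarked intergenic peaks. A noncoding transcript start lay within 1 kb of 106 peaks (9.46%), against 33 unmarked peaks (4.37%). At position 30, the peak nearest to Frmd8 had its centre 393 bp upstream of a start of Neat1, the RNA of nuclear paraspeckles, in an H3K27ac region of 36598 bp. At position 581, a peak covered a start of Malat1, a nuclear RNA of high abundance, with its centre 31 bp downstream. The host gene of miR-22, Mir22hg, had a peak centre 232 bp upstream of a start, at position 723. These peaks lay at starts of noncoding genes and were named after their values were seen. With starts and bodies of all biotypes excluded, 846 peaks were left, and TGCTGAC was present in 22.3% of them.

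Repeats and base composition were similar to those of intragenic marked peaks. The median share of bases in masked repeats was 7.83% in both classes, and 13.9% in unmarked intergenic peaks. At least 50% of the bases were masked in 3.13% of intergenic marked, 2.8% of intragenic marked and 12.5% of unmarked intergenic peaks. The median content of G and C was 50.2%, 49.5% and 44.1% in these classes. The nearest other Maf peak was at a median distance of 53816 bp from an intergenic marked peak, 45020 bp from an intragenic marked peak and 153509 bp from an unmarked intergenic peak.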

How the data were processed

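ChIP-seq reads for Maf and H3K27ac were aligned to GRCm38 (mm10) by the authors, and peaks were called in each sample. The submitters' processing notes name bcl2fastq 2.17, FastQC, Bowtie2 2.3.2, Picard 2.10.3 and HOMER, the paper states a false discovery rate for its Maf peaks, and other settings of the peak caller are not given in the sources used here. The deposited lists hold positions and a score, which is 1 for every peak of the Maf replicate 2 list, so no strength or depth is given, and list order was used in its place. Whether the lists were filtered against the input is not stated.

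Places were set with the basic protein-coding transcripts of GENCODE M21 (41433 starts of 21827 gene names), and an overlap needed 1 base. The 1 row on an unplaced contig was left out of all classes. Both strands of the genome sequence (RefSeq, GRCm38) were searched for 24 motifs. Shares at the centre and beside were compared by exact McNemar tests and classes by Fisher's exact tests, with Benjamini-Hochberg adjustment and a threshold of 0.05. Intervals are exact 95% Clopper-Pearson intervals that hold for counting error alone. The motif search, class rule and tests were checked on simulated data. Of 388 entries in 19 gene lists, 386 matched a gene name.

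Genes were named by a rule: those nearest to the first 15 peaks, to the first 12 peaks called in Maf replicate 1, to up to 4 peaks per gene list, to the 6 H3K27ac regions with most peaks and to the 10 best full elements, plus 8 genes of the study. Genes that the text gives beyond it, such as the other nearest genes of a list, Tpm1 and Tnp1 for their number of peaks and the noncoding genes, were added after their values were seen. The peaks, gene lists and motifs were chosen with earlier results of these data known. Inputs were not used here. The values of 1 nearest gene in the calcium handling list are not reported here. Python 3.11.15, numpy 2.4.6, pandas 2.3.3, scipy 1.17.1 and matplotlib 3.10.9 were used.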

Additional observations from a re-analysis of the deposited data

How the results depend on the processing

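The number of intergenic marked peaks was 1120, and the alternatives on the replicate 2 list gave 846 (genes of all biotypes) to 1117 (all protein-coding transcripts, chosen after seeing the data). Leaving out Maf replicate 2, so that the list of replicate 1 was used, left 22 peaks, and leaving out H3K27ac replicate 1 or 2 left 1051 and 1069. The share marked in both replicates, 89.3%, was 91.6% with an overlap of 50% of the peak. When a library was left out it was 93.5% to 95.5%, a range that includes the 22 peaks of the replicate 1 list. Without 1 H3K27ac replicate the other alone defines the class, so a rise follows from the rule and says nothing on stability. The excess of TGCTGAC at the centre kept its direction and its side of the threshold under all alternatives run, from 16.1 to 43.2 points. The difference in peaks called in Maf replicate 1 was lost against unmarked intergenic peaks without H3K27ac replicate 1 (1.17 points, adjusted p = 0.0668, Fisher's exact test), within the upper part of the list (0.156 points) and with genes of all biotypes (0.967 points), where that against promoter marked peaks was lost too (1.05 points). The range without 1 H3K27ac replicate was 1.17 to 1.34 points.

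Within the upper (positions 1 to 2734) and lower parts of the list, the TGCTGAC differences from promoter and intragenic marked peaks no longer passed in the upper part (5.74 and -5.00 points), nor the latter in the lower (-3.8 points). Against unmarked intergenic peaks, the upper part reversed TGCTGAC (-6.15 points), TGCTGA (-9.06), the full element (-6.01) and the AP-1 site (-0.264), and the lower part reversed the Ctcf site (0.604). Against intragenic marked peaks, where neither difference had passed, the upper part reversed CAGCTG (-1.14) and the Mef2 site (-0.164), and all protein-coding transcripts reversed the Mef2 site (-0.0968). The TGCTGA difference from intragenic marked peaks was lost under every alternative run (adjusted p = 0.0592 to 0.899, Fisher's exact test). The cause was not tested. No paired analysis was possible because the comparisons are between peak classes of 1 sample and give no fit over replicates. Depth is unknown, and with 74 peaks in Maf replicate 1 a missing call there does not show missing binding.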
